A study of Mus musculus with 16 samples.

Results

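Acyl-CoA synthetases join a free fatty acid to coenzyme A, which is the step that commits the acid to oxidation, to storage as glycerolipid or to other uses in the liver cell. The families are divided by the chain length they prefer. The Acsl enzymes act on long-chain fatty acids, the Acsm enzymes act on medium-chain acids in the mitochondrion, and the Acss enzymes act on acetate and other short-chain acids. The genes studied here were the 10 members of these families that were listed by symbol, namely Acsl1, Acsl3, Acsl4 and Acsl5, Acsm1, Acsm2, Acsm3 and Acsm5, and Acss2 and Acss3, out of 50559 gene symbols in the table. All 10 were found and all 10 passed the filter on low counts, as did 18335 genes in total.

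RNA of whole liver of male C57BL/6J mice was sequenced in 16 libraries, 4 in each of 4 groups. Mice were 6 weeks old when they started a low-fat diet (LFD, called chow in the labels) or a high-fat diet (HFD), and they were killed after 10 weeks on it. From week 6, for 4 weeks, a subset of the HFD mice received siRNA against ketohexokinase (KHK, the enzyme that phosphorylates fructose) at 20 mg/kg every 2 weeks (HFD + siRNA), and another subset received the KHK inhibitor PF-06835919 by gavage in 2 daily doses of 15 mg/kg (HFD + Inhib). The LFD, HFD and HFD + Inhib mice also carried luciferase control siRNA at 10 mg/kg, and the LFD, HFD and HFD + siRNA mice received the methylcellulose vehicle. The siRNA was conjugated to GalNAc, a sugar taken up by a receptor of hepatocytes, so that it acts mainly in these cells, whereas the inhibitor reaches the whole animal. Mice were injected with saline or insulin shortly before the livers were taken, and which library came from which injection is not given in the sources used here, so its part in the results was not tested. Library totals were 24317111 to 35820234 expected counts, with a median of 29570114.

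Khk itself was examined first, as a check of the labels. Its level, in CPM (counts relative to the library total, adjusted by TMM factors), was 214, 233, 349 and 269 in the LFD livers and 251, 322, 233 and 251 in the HFD livers. It was 11.8, 9.14, 18.1 and 11.5 in HFD + siRNA, and 112, 152, 94.6 and 120 in HFD + Inhib. All 4 siRNA libraries lay far below every other library, and the inhibitor libraries lay between them and the untreated groups without overlap. The log2 fold change of Khk against HFD was −4.38 ± 0.23 (SE, adjusted p = 1.9e-08) with the siRNA and −1.14 ± 0.20 (adjusted p = 7.5e-04) with the inhibitor. Here and below, p-values are from edgeR's quasi-likelihood test in 1 fit of the 16 libraries, with Benjamini-Hochberg adjustment over 18335 genes and a threshold of 0.05. The labels number the 4 libraries of a group and do not say that each came from its own mouse, so the p-values measure the spread between these libraries.

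Hepatocyte markers were abundant in every group, led by Alb (albumin), and kidney markers were near 0, with a summed level of 0.101 to 0.205 CPM. The summed level of 8 hepatocyte markers was 90900 ± 6560 CPM (SD, n = 4) in LFD and 82100 ± 7680 CPM in HFD. With the siRNA it was 85900 ± 5640 CPM, and with the inhibitor 58200 ± 1420 CPM. The 4 inhibitor libraries were at 57700, 56500, 59200 and 59500 CPM, below the lowest HFD library at 70700 CPM. Of these 8 markers, 3 fell and 0 rose with the inhibitor against HFD, and Alb alone went from a mean of 51000 to 29900 CPM. In whole tissue, fewer cells of a type and less RNA per cell cannot be told apart. Of the macrophage markers 0 rose and 2 of 8 fell with the inhibitor, and their sum was 254 CPM in HFD and 196 CPM in HFD + Inhib. The adipocyte list summed to 1470 CPM in HFD and 1350 CPM in HFD + Inhib, of which Car3, which liver also expresses, made up 1450 and 1200 CPM. Of its 8 genes 4 were tested and 3 of these rose, Cfd by 3.68, Fabp4 by 3.30 and Cidec by 2.55 (log2 scale), and Adipoq, Lep, Plin1 and Retn were too low to be tested. With the inhibitor, 3 of 8 stellate cell markers and 3 of 7 tested lymphocyte markers fell, 1 of 8 endothelial markers rose, and 0 of 7 tested cholangiocyte markers were called. Of the 8 kidney markers, 6 had at most 3 counts in every library. With the siRNA against HFD, the adipocyte sum went from 1470 to 2910 CPM, of which Car3 was 1450 and 2890 CPM, and 1 of the 4 tested adipocyte genes rose (Car3) and 1 fell (Cidec), while 0 markers of the other lists were called. On the diet the stellate sum went from 367 to 458 CPM and the lymphocyte sum from 13.8 to 19.5 CPM, with 1 gene of each list higher, as was 1 cholangiocyte marker. In the same comparison 2 adipocyte genes rose (Cidec and Cfd) and 1 hepatocyte marker fell. Of all tested genes, 18.2% were called with the inhibitor against HFD, 11.7% with the siRNA and 18.4% on the diet. Lists with 1 gene called were near or below these shares. The part of these marker levels in the results below was not tested.

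The 10 genes differed widely in level. Levels of different genes are compared here as CPM per kilobase of transcript, with transcript lengths from GENCODE M21. In LFD livers Acsl1, the main long-chain synthetase of liver, was the highest at 248.6 ± 54.6 (SD, n = 4), at rank 204 of 15858 genes with a known length. Acsm1 followed at 116 ± 5.76, then Acss2 at 94.1 ± 23.0 and Acsl5 at 88.4 ± 9.01, and the ranges of neighbours in this run of 3 overlapped. Acsm5 at 36.5, Acsm3 at 23.9, Acsl4 at 15.9 and Acsl3 at 6.72 CPM per kilobase came next, each separated from the next by its 4 libraries. Acss3 at 4.94 overlapped with Acsl3. Acsm2 was the lowest at 0.136, and its raw counts were 3 to 37 in the 16 libraries. Part of this order depends on the length used. With coding length in place of transcript length, Acsl5 came second by its mean in LFD, above Acsm1 and Acss2. The LFD libraries of Acsm3 and Acsl4 then overlapped. Of the relatives outside the list, Acsl6 and Acsm4 were too low to be tested.

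**Figure D1:**
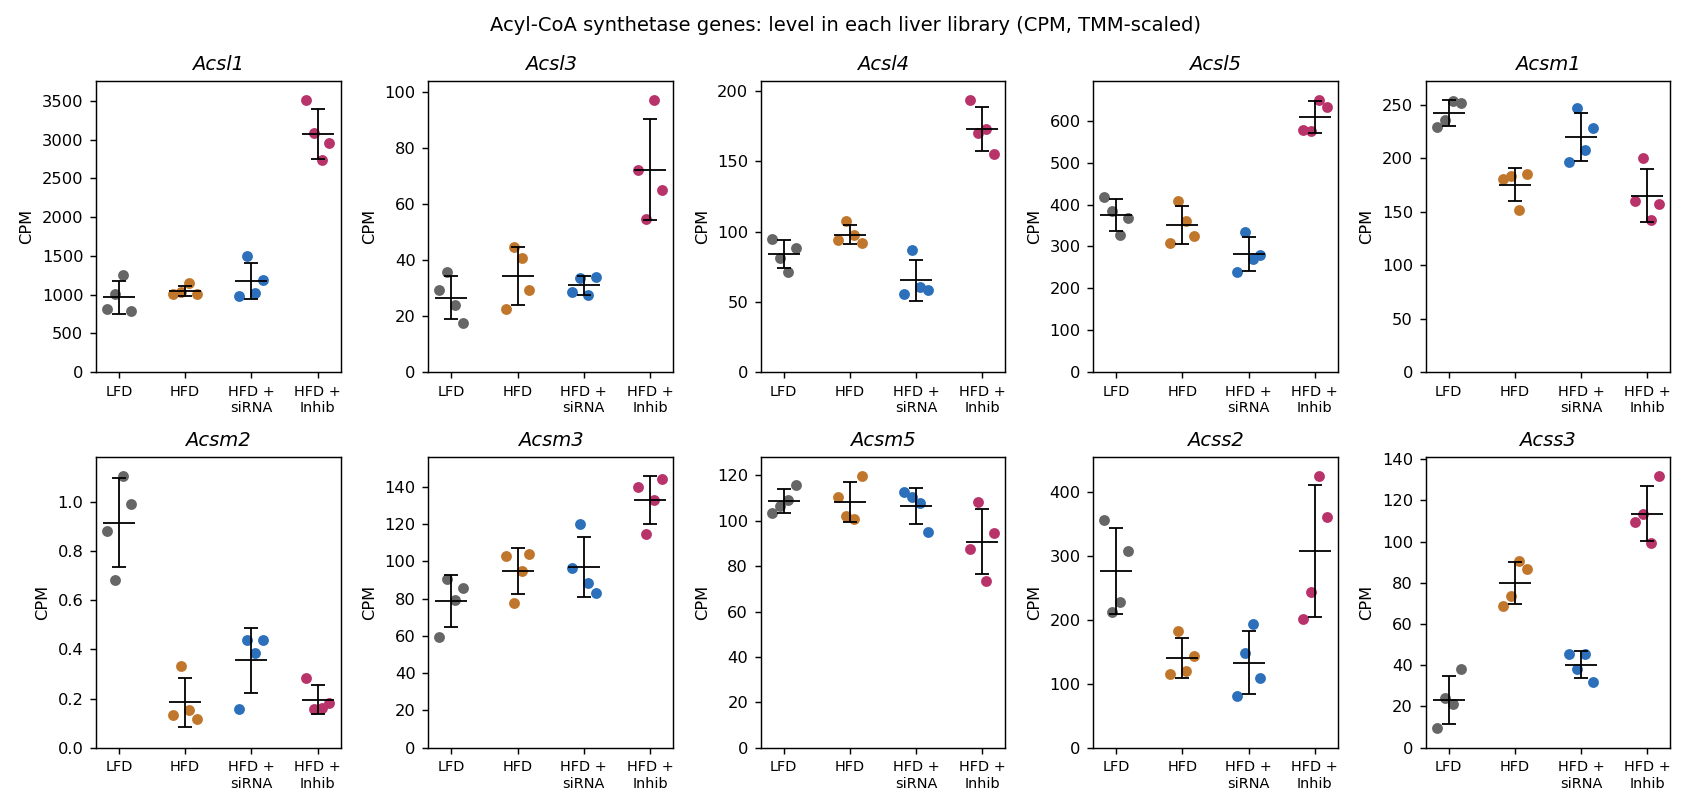
Level of each of the 10 genes (CPM, TMM-scaled, vertical axes starting at 0 and different for each gene) in the 4 groups. Points are the 4 libraries of a group, and the bar and whiskers are the mean and SD. The 4 Acsl genes stand highest in HFD + Inhib, Acsm1, Acsm2 and Acss2 are lower in HFD than in LFD, and Acss3 is higher in HFD than in LFD.

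With the high-fat diet alone, the genes called were members of the Acsm and Acss families, and the difference between families was not tested. The diet comparison asks which of these genes differ between fat-fed and low-fat livers. Of the 10 genes, Acss3 rose and Acsm1, Acsm2 and Acss2 fell, while none of the 4 Acsl genes passed the test. With at least 10 counts required in every library, which leaves out Acsm2, 3 members were called. These 4 calls stand beside a background of 18.4% of all tested genes called in this comparison, 9.58% higher and 8.80% lower. The 4 libraries of HFD and of LFD did not overlap for the same 4 genes, as for 20.4% of all genes. The median log2 fold change of the 10 genes was 0.0543, against −0.011 over all genes tested.

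Acss3, a mitochondrial enzyme known for activating propionate, was the member that rose. It measured 9.43, 24.2, 21.0 and 38.2 CPM in the LFD livers and 68.9, 73.6, 90.6 and 86.8 CPM in the HFD livers. Every HFD library was above every LFD library, and the LFD libraries varied among themselves by an SD of 51.0% of their mean. The log2 fold change was 1.78 ± 0.27 (SE, adjusted p = 6.2e-04), a 3.44-fold difference. Of the 50-base words of its transcript, 51.4% lie opposite Ppfia2 on the other strand, and whether counting used the strand is not given in the sources used here, so reads of the 2 genes cannot be told apart there. Ppfia2 itself was at 1.35 to 4.28 CPM over all libraries.

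Acss2, the cytosolic and nuclear enzyme that makes acetyl-CoA from acetate, moved the other way. Its levels were 356, 213, 228 and 307 CPM in LFD and 115, 182, 119 and 144 CPM in HFD, with no overlap between the groups. The log2 fold change was −0.98 ± 0.27 (adjusted p = 0.0207). The call was lost without LFD replicate 1 (−0.82, adjusted p = 0.072), without HFD replicate 1 (−0.89, adjusted p = 0.055) and without HFD replicate 3 (−0.91, adjusted p = 0.065). As a description, Acss2 made up 94.8% ± 2.51 (SD, n = 4) of the summed Acss2 and Acss3 level per kilobase in LFD and 73.3% ± 4.95 in HFD. With coding length in place of transcript length these shares were 91.7% and 62.6%.

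Acsm1, a medium-chain enzyme of the mitochondrial matrix, measured 229, 236, 254 and 251 CPM in LFD and 181, 183, 152 and 186 CPM in HFD. Again the groups did not overlap, and the log2 fold change was −0.47 ± 0.11 (adjusted p = 0.0076). The fold change of its near relative Acsm2 was −2.23 ± 0.37 (adjusted p = 0.0011), from 0.881, 0.681, 1.11 and 0.989 CPM in LFD to 0.133, 0.334, 0.152 and 0.117 CPM in HFD. These are levels at the edge of detection, so that the fold of Acsm2 rests on few reads. Its raw counts were 19 to 37 in LFD and 3 to 13 in HFD, 5 to 15 with the siRNA and 4 to 8 with the inhibitor, close to the filter on low counts, which the LFD libraries cleared and most others did not. The diet call was kept with no filter (−2.22, adjusted p = 0.0011), and a filter of at least 10 counts in every library leaves Acsm2 out. Acsm5, also a mitochondrial medium-chain enzyme, was called in none of the 6 comparisons, and its log2 fold change on the diet was −0.01 with a 95% confidence interval from −0.22 to 0.21. Acsl1 was likewise not called on the diet (0.11, 95% confidence interval −0.21 to 0.44).

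The inhibitor raised all 4 Acsl genes. In the comparison of HFD + Inhib with HFD, which asks what kinase inhibition changes in fat-fed livers, 6 of the 10 genes rose (Acsl1, Acsl3, Acsl4, Acsl5, Acsm3 and Acss2) and 0 fell. In the background 18.2% of all genes were called, 9.80% higher and 8.42% lower. For 7 of the 10 genes, these 6 and Acss3, all inhibitor libraries were above all HFD libraries, and 23.3% of all genes had no overlap in either direction. The median log2 fold change of the 10 genes was 0.65, against −0.0044 over all genes tested.

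Acsl1 had the largest estimated rise. Its levels were 1008, 1031, 1150 and 1003 CPM in HFD and 3513, 3087, 2741 and 2958 CPM in HFD + Inhib. The lowest inhibitor library was above the highest library of every other group, where the largest value was 1505 CPM in HFD + siRNA replicate 2. The log2 fold change was 1.55 ± 0.16 (adjusted p = 5.0e-06), a 2.93-fold difference, and its rank per kilobase went from 154 in HFD to 64 in HFD + Inhib. Acsl1 is a known target of PPARα, the nuclear receptor that switches on fatty acid oxidation in liver. The part of PPARα in this rise was not tested.

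Acsl3, an enzyme of the endoplasmic reticulum and of lipid droplets, went from 22.5, 44.8, 40.6 and 29.2 CPM in HFD to 72.2, 54.9, 97.2 and 65.1 CPM in HFD + Inhib (log2 fold change 1.08 ± 0.23, adjusted p = 0.0036). Acsl4, which prefers arachidonic acid, went from 94.2, 107, 97.7 and 91.7 CPM to 194, 170, 173 and 155 CPM (0.82 ± 0.13, adjusted p = 3.1e-04). Acsl5, which acts on long-chain acids at the endoplasmic reticulum and mitochondria, went from 308, 410, 361 and 326 CPM to 577, 575, 650 and 633 CPM (0.79 ± 0.12, adjusted p = 1.7e-04). In all 3 genes every inhibitor library was above every HFD library. Beside that, the 95% confidence interval of Acsl1, from 1.22 to 1.89 on the log2 scale, lay above those of Acsl4 (0.55 to 1.10) and Acsl5 (0.55 to 1.04) and overlapped with those of Acsl3 (0.59 to 1.56) and Acss2 (0.56 to 1.71). The difference between genes was not tested.

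**Figure D2:**
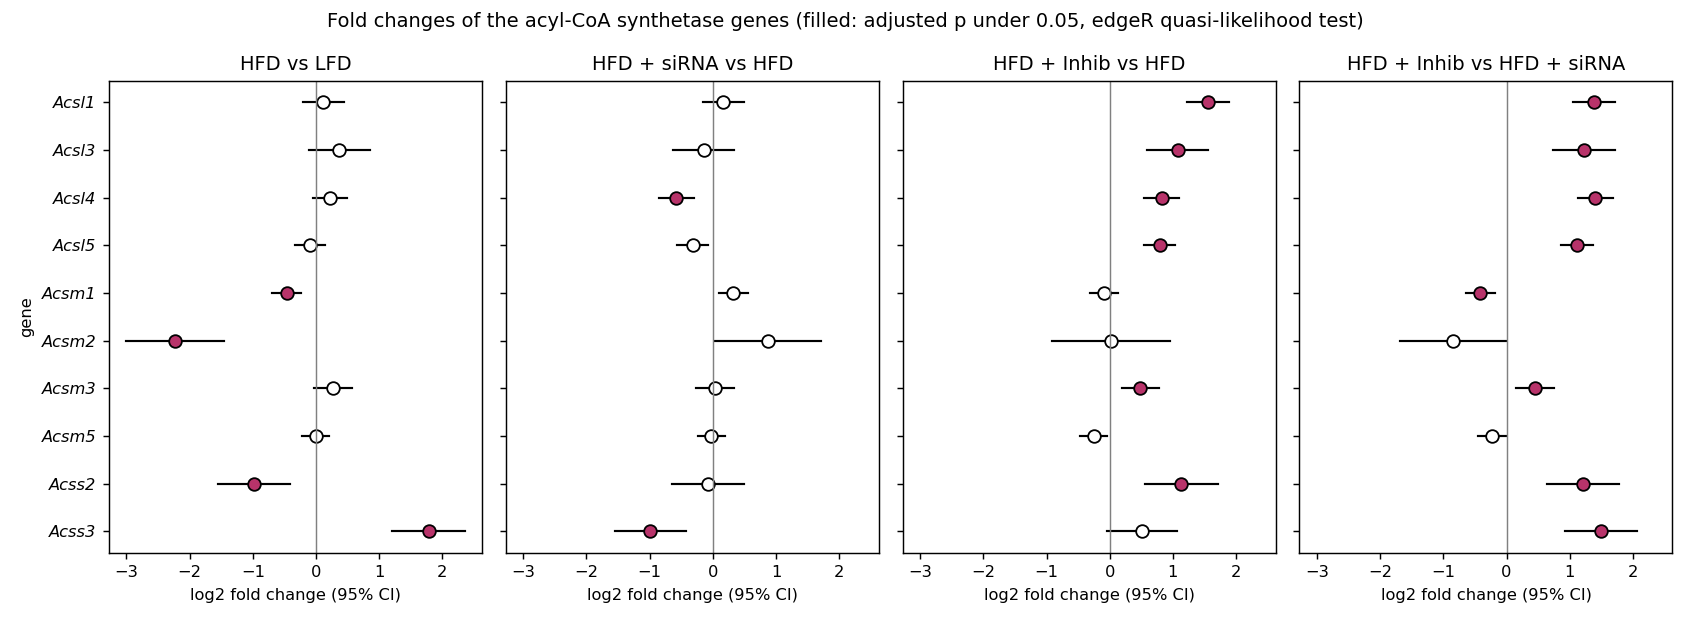
Log2 fold change (horizontal axis) of each of the 10 genes in 4 comparisons, with 95% confidence intervals from the edgeR fit. Filled points had an adjusted p under 0.05. The 4 Acsl genes are filled and to the right of 0 in the inhibitor comparisons, where Acsl1 is at 1.55 against HFD, and Acss3 is at 1.78 on the diet and at −0.99 with the siRNA.

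The transcription start windows of the members were searched for motifs, since the 4 Acsl genes moved together and known regulators of lipid genes bind short motifs. RefSeq (GRCm38.p6) lists 11 windows of 300 bases, 250 before and 50 after the start, for 9 of the 10 genes, and Acss3 has none in the table. The searches, on both strands, were for direct repeat 1, in which AGGTCA occurs in tandem with 1 base between (bound by PPARα with its partner RXR), the sterol regulatory element TCACNCCAC (bound by SREBP proteins) and the E-box CACGTG. The direct repeat was found in no member's window with up to 2 mismatches, a match that 3.86% of all 32851 windows hold. With 3 mismatches it occurred in the windows of Acsl4, Acsl5, Acsm1 and Acsm5. Of all windows, 24.6% hold a match with up to 3 mismatches. An exact sterol regulatory element occurred in 1 of the 2 windows of Acsl1, where 1.24% of all windows hold one, and a match with 1 mismatch, held by 24.2% of windows, occurred in the other. Such matches with 1 mismatch also occurred in the windows of Acsl4, Acsl5 (at 2 places) and Acsm2. An exact E-box occurred in the window of Acsm5, as in 7.15% of all windows. Capitals mark the bases aligned to the motif in the following stretches, of which the first holds the match with 1 mismatch and the others are exact. All end before the start site, and a match on the minus strand reads as the reverse complement. They are shown because Acsl1 is the member with the largest estimated fold change with the inhibitor and Acsm5 the only member called in no comparison.
Acsl1, chr8:46470806-46470865, plus strand, first base of the match at −206 from the first start: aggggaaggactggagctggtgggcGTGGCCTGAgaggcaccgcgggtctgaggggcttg
Acsl1, chr8:46490865-46490924, plus strand, first base of the match at −76 from the second start: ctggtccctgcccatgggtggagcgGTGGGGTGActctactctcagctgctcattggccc
Acsm5, chr7:119526106-119526165, plus strand, first base of the match at −132 from the start: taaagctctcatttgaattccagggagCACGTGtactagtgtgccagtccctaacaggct
A match describes these letters and does not show that a factor binds, and the counts per gene do not tell the 2 starts of Acsl1 apart.

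Outside the Acsl family the inhibitor response was mixed. Acss2 went from 115, 182, 119 and 144 CPM in HFD to 201, 244, 425 and 361 CPM (log2 fold change 1.14 ± 0.27, adjusted p = 0.0078), and no library of the groups overlapped. Against LFD, its level in HFD + Inhib was not called (0.16, 95% confidence interval −0.41 to 0.73). Acss3 was at 110, 113, 99.5 and 132 CPM with the inhibitor. All 4 of these values were above the HFD libraries, but the difference from HFD did not pass the test (0.51 ± 0.26, adjusted p = 0.203), except in a fit of only these groups (0.49, adjusted p = 0.0127). Against LFD, Acss3 stayed higher by 2.29 ± 0.28 on the log2 scale (adjusted p = 1.4e-05).

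The Acsm genes lie side by side on chromosome 7, where the RefSeq windows of Acsm5, Acsm2, Acsm1, Acsm4 and Acsm3 follow each other on the plus strand within 235 kb (GRCm38.p6). Acsm3, at one end of the row, rose from 103, 77.7, 94.9 and 104 CPM in HFD to 140, 115, 133 and 144 CPM in HFD + Inhib (log2 fold change 0.49 ± 0.14, adjusted p = 0.0231). This call was lost without HFD replicate 2 (0.40, adjusted p = 0.079), without HFD + Inhib replicate 1 (0.46, adjusted p = 0.057) and without HFD + Inhib replicate 4 (0.45, adjusted p = 0.065), and with the replicate block and the correction for GC content and length together (0.35, adjusted p = 0.060). In addition, 35.2% of the 50-base words of the Acsm3 transcript lie opposite Eri2, which was at 5.32 to 9.71 CPM. Acsm1, whose HFD level was already low, was at 160, 200, 143 and 157 CPM with the inhibitor and did not differ from HFD beyond the spread (−0.09, 95% confidence interval −0.31 to 0.14). Acsm5 was at −0.25 (adjusted p = 0.101), and was called lower without HFD + Inhib replicate 2 (−0.35, adjusted p = 0.024).

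As a description with no test, the 10 genes summed to 635.5 ± 32.4 CPM per kilobase in LFD (SD, n = 4) and 593.1 ± 22.8 in HFD. The sum was 613 ± 91.0 with the siRNA and 1263 ± 50.5 with the inhibitor. The Acsl sum accounted for most of the difference, at 379 in HFD and 983.5 in HFD + Inhib, while the Acsm sum was 149 and 150. Acsl1 alone held 45.4% of the 10-gene sum in HFD and 62.4% in HFD + Inhib. Within the Acsl family its share was 68.6% ± 6.14 (SD) in LFD and 71.0% ± 2.51 in HFD, then 77.6% ± 1.17 with the siRNA and 80.1% ± 2.42 with the inhibitor. With coding length in place of transcript length these shares of Acsl1 in its family were 65.8%, 68.3%, 75.3% and 78.0%.

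**Figure D3:**
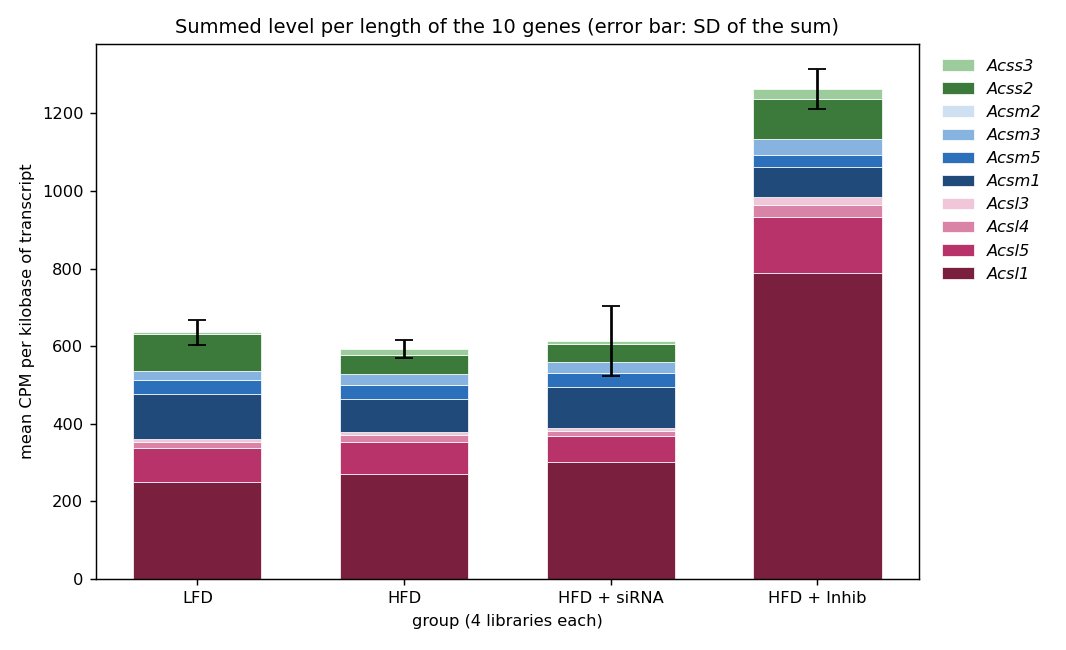
Summed level of the 10 genes (mean CPM per kilobase of transcript, vertical axis from 0) in each group, divided by gene. The error bar is the SD of the sum over 4 libraries. The sum is 1263 in HFD + Inhib and between 593.1 and 635.5 in the other groups, and the Acsl1 segment is the largest in each bar.

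The siRNA comparison, HFD + siRNA against HFD, asks what removal of the enzyme changes. Here 2 of the 10 genes were called, both lower, Acsl4 and Acss3, beside a background of 11.7% of all genes called, 5.20% higher and 6.55% lower. Acsl4, Acss3 and Acsm1 had no overlap between the groups, as had 20.6% of all genes. The median log2 fold change of the 10 was −0.0488, against 0.022 over all genes. Acsl4 was at 55.7, 87.1, 60.7 and 58.3 CPM with the siRNA, below all HFD libraries (91.7 to 107 CPM), with replicate 2 standing apart from the other siRNA libraries. The log2 fold change was −0.58 ± 0.13 (adjusted p = 0.0097). Acss3 was at 45.5, 38.2, 45.7 and 31.9 CPM, again below every HFD library (68.9 to 90.6 CPM), with a log2 fold change of −0.99 ± 0.27 (adjusted p = 0.0248).

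Neither call held with a correction for GC content and length, which were corrected together and not singly. Over the 8232 genes whose mean log2 CPM reached 3, the log2 fold change of this comparison correlated with the GC content of the transcript at a Spearman coefficient of 0.512, as a description across genes. The transcripts of Acsl4 (39.0% GC) and Acss3 (40.5%) are the poorest in GC of the 10, and the median of these genes was 49.7%. Both are also long, at 5280 and 4696 bases. With the correction, Acsl4 was at −0.17 (adjusted p = 0.491) and Acss3 at −0.64 (adjusted p = 0.093), and 0 of the 10 genes were called. Acss3 also lost its call without HFD replicate 3 (−0.92, adjusted p = 0.072), HFD replicate 4 (−0.97, adjusted p = 0.056) or HFD + siRNA replicate 4 (−0.91, adjusted p = 0.075). On the diet, where the coefficient was −0.532, Acss3 kept its call with the correction (1.5, adjusted p = 6.5e-04). Against HFD with the inhibitor, where it was −0.274, the 6 genes called without the correction were all called with it, and Acsm5 was added (−0.32, adjusted p = 0.029). With a replicate block as well, Acsm3 lost its call (0.35, adjusted p = 0.060).

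**Figure D4:**
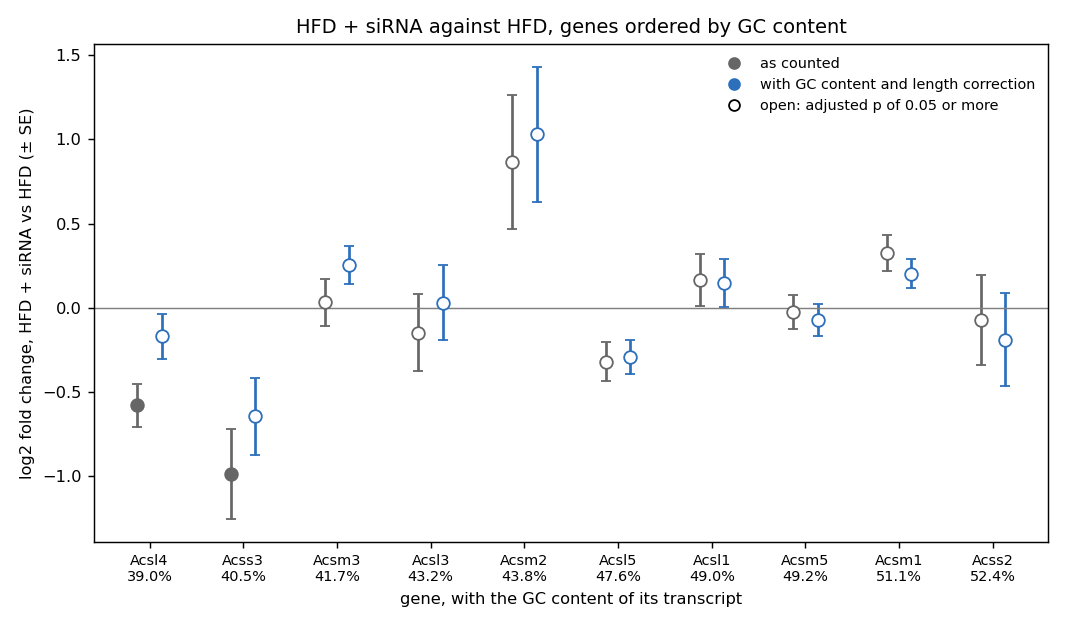
Log2 fold change (± SE, vertical axis) of HFD + siRNA against HFD for the 10 genes, ordered along the horizontal axis by the GC content of the transcript. Grey points are the values as counted and blue points those with a correction for GC content and length, and open points had an adjusted p of 0.05 or more. Acsl4 moves from −0.58 to −0.17 and Acss3 from −0.99 to −0.64, and no blue point is filled.

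The other members did not pass the test with the siRNA. Acsm1 was at 197, 247, 207 and 228 CPM, above all 4 HFD libraries, with a log2 fold change of 0.33 ± 0.11 (adjusted p = 0.057). Acsl5 was at 239, 335, 271 and 280 CPM, overlapping with HFD (−0.32 ± 0.12, adjusted p = 0.083). For both genes DESeq2 gave an adjusted p under the threshold, 0.033 for Acsm1 and 0.045 for Acsl5, as did the replicate block for Acsm1 (0.0438). Acsl5 was also called without HFD + siRNA replicate 2 (−0.44, adjusted p = 0.026), and Acsm2 without HFD replicate 2 (1.37, adjusted p = 0.0497). Acsl1 was at 988, 1505, 1018 and 1192 CPM (0.17, 95% confidence interval −0.16 to 0.49), and Acss2 at 81.4, 148, 194 and 110 CPM (−0.07, 95% confidence interval −0.64 to 0.49).

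Set against each other, the treatments differed in most of the members. The comparison of HFD + Inhib with HFD + siRNA tests the difference between their effects directly, since both groups are read against the same HFD libraries. Of the 10 genes 7 were higher with the inhibitor and 1 was lower, beside a background of 33.8% of all genes called, 17.3% higher and 16.6% lower, and 6 members had no overlap between the groups (32.4% of all genes). Acsl1 was higher by 1.39 ± 0.16 (adjusted p = 8.9e-06), Acsl3 by 1.22 ± 0.23, Acsl4 by 1.40 ± 0.13 and Acsl5 by 1.11 ± 0.12 on the log2 scale. The Spearman coefficient with GC content was −0.54 here. Corrected for GC content and length, Acsl4 was at 0.90 (adjusted p = 1.4e-04), Acsl3 at 0.935 (adjusted p = 0.0051) and Acss3 at 1.05 (adjusted p = 0.0028). With it, Acsl1, Acsl5 and Acss2 were at 1.38, 1.04 and 1.35, and Acsm1 at −0.34. Acss2 was higher by 1.21 ± 0.27 and Acss3 by 1.49 ± 0.27 (adjusted p = 5.4e-04). Acsm1 was the gene that was lower (−0.41 ± 0.11, adjusted p = 0.0070). The rise of Acsm3 (0.45 ± 0.14, adjusted p = 0.0201) was lost with the correction for GC content and length (0.09, adjusted p = 0.594) and without HFD + siRNA replicate 3 (0.42, adjusted p = 0.053), HFD + siRNA replicate 4 (0.40, adjusted p = 0.060) or HFD + Inhib replicate 4 (0.41, adjusted p = 0.057). Acsm2 was called lower without HFD + siRNA replicate 1 (−1.08, adjusted p = 0.0415) and Acsm5 without HFD + Inhib replicate 2 (−0.31, adjusted p = 0.0245). Cell markers were also called here. Lower with the inhibitor were 4 of 8 hepatocyte, 5 of 8 macrophage, 3 of 8 stellate and 2 of 8 endothelial markers. In the same lists 1, 0, 0 and 1 were higher. Of the 4 tested adipocyte genes 3 were higher and 1 lower. For the stellate and endothelial lists the share called was near the 33.8% of all tested genes. The part of the marker changes was not tested.

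Distance from the low-fat level was read from the remaining comparisons. In HFD + siRNA against LFD, Acsl5, Acsm2 and Acss2 were lower and 0 were higher, beside a background of 8.63% called, 4.75% higher and 3.88% lower. With at least 10 counts in every library, and so without Acsm2, 2 were called. Of the 3, only Acsm2 and Acss2 had no overlap between the groups (12.8% of all genes). Acss2 was at −1.05 ± 0.27 (adjusted p = 0.0246) and Acsl5 at −0.42 ± 0.12 (adjusted p = 0.0349), and leaving out HFD + siRNA replicate 1 ended all 3 calls, with adjusted p = 0.068 for Acss2, 0.107 for Acsl5 and 0.060 for Acsm2. Acss2 was also lost without LFD replicate 1 or HFD + siRNA replicate 4 (adjusted p = 0.067 and 0.073), and Acsm2 without LFD replicate 3 or HFD + siRNA replicate 3 (adjusted p = 0.058 and 0.050). Acsl5 was also lost without LFD replicate 1, 2 or 4 or HFD + siRNA replicate 3 or 4 (adjusted p of 0.053 to 0.092), with no filter on low counts (0.059) and in a fit of only these groups (0.091). Acss3, at 0.79 ± 0.27 (adjusted p = 0.079) in this comparison, was called higher with the correction for GC content and length (0.86, adjusted p = 0.024), with the replicate block added to it (0.91, adjusted p = 0.025), with DESeq2 (0.79, adjusted p = 0.030) and without LFD replicate 4 (1.13, adjusted p = 0.0084). Acsl4 was called lower without HFD + siRNA replicate 2 (−0.54, adjusted p = 0.0061). In HFD + Inhib against LFD, 6 genes were higher (the 4 Acsl genes, Acsm3 and Acss3) and Acsm1 and Acsm2 were lower, beside a background of 36.9% called, 18.8% higher and 18.2% lower. With at least 10 counts in every library, and so without Acsm2, 7 were called. All 8 had no overlap between the groups, as had 31.2% of all genes. Acsl1 was at 1.67 ± 0.16 and Acsm1 at −0.56 ± 0.11 (adjusted p = 7.9e-04). In this comparison the Spearman coefficient of the log2 fold change with the GC content of the transcript was −0.563, over the 8232 genes described above. Acsl4 was at 1.05 ± 0.13 as counted and at 0.53 corrected for GC content and length (adjusted p = 0.0078). Acsm3 was at 0.75 ± 0.14 as counted and at 0.36 with the correction for GC content and length (adjusted p = 0.024). Acsm5 was called lower with that correction (−0.32, adjusted p = 0.022), with DESeq2 (−0.26, adjusted p = 0.048) and without HFD + Inhib replicate 2 (−0.35, adjusted p = 0.012). Against LFD, 5 of 8 hepatocyte, 3 of 8 macrophage, 2 of 8 stellate and 4 of 8 endothelial markers were lower with the inhibitor. In the same lists 1, 0, 1 and 1 were higher. Of the 4 tested adipocyte genes 3 were higher and 1 lower. For the macrophage and stellate lists the share called was near the 36.9% of all tested genes. The part of the marker changes was not tested.

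The genes around the acyl-CoA pool give the setting of these changes. Beside the counts of these lists, 18.2% of all tested genes were called with the inhibitor against HFD, 9.80% higher and 8.42% lower. On the diet 18.4% were called, 9.58% higher. The PPARα target list holds none of the 10 members. Beside oxidation and ω-hydroxylation genes it includes Cd36 and Fgf21. Of its 16 genes, 15 were higher and 0 lower with the inhibitor against HFD, with a median log2 fold change of 2.16. Ehhadh, a peroxisomal β-oxidation enzyme, went from 278 ± 32.6 to 6970 ± 1490 CPM (SD, n = 4), and Cyp4a14, a fatty acid ω-hydroxylase, from a mean of 201 to 7030 ± 236 CPM. With the siRNA, 0 of the 16 rose and 2 fell, a share near the 11.7% of all tested genes called in that comparison. In the carnitine shuttle, which carries acyl groups into the mitochondrion, 6 of 8 genes rose with the inhibitor, among them Cpt1b (4.16 ± 0.23, adjusted p = 4.0e-09) and Slc25a20, the carrier itself (1.10 ± 0.11, adjusted p = 3.7e-06).

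Acyl-CoA thioesterases undo the reaction of the synthetases, and 10 of 13 tested rose and 1 fell with the inhibitor. Acot1 was higher by 4.46 ± 0.27 (adjusted p = 1.7e-08) and Acot2 by 4.42 ± 0.23 (adjusted p = 2.9e-09) on the log2 scale. Acot1 and its relatives are close copies, so that reads may be divided between them. On the diet alone, 5 of the 13 rose and 0 fell. Of 16 genes of CoA synthesis and turnover, 8 rose and 0 fell with the inhibitor, led by the pantetheinase Vnn1 (2.37 ± 0.22, adjusted p = 2.3e-06), with the pantothenate kinases Pank1 (0.88 ± 0.14) and Pank3 (0.79 ± 0.15) among them. Of 10 other tested acyl-CoA synthetases, 5 rose and 0 fell, and Slc27a1, a fatty acid transport protein with synthetase activity, went from 6.72 ± 1.04 to 132 ± 34.7 CPM. Its relative Slc27a2 went from 712 ± 72.6 to 1890 ± 175 CPM. Acsf2 was the only one of these 10 called with the siRNA (−0.65 ± 0.08, adjusted p = 2.1e-04), a share near the 11.7% of all tested genes.

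Of 12 lipogenic genes, 9 fell and 0 rose with the siRNA, with a median log2 fold change of −1.45, and Scd1, the Δ9 desaturase, went from 8630 ± 2820 to 2150 ± 465 CPM. With the inhibitor 3 rose, Acacb, Scd1 and Me1, of which Scd1 lost the call without HFD replicate 1 (0.76, adjusted p = 0.053) or HFD + Inhib replicate 3 (0.81, adjusted p = 0.056), and 1 fell, Pklr, the liver pyruvate kinase (−1.93 ± 0.23, adjusted p = 3.1e-05). With the inhibitor 18.2% of all tested genes were called, 9.80% higher. Acss2 is a known target of SREBP, and the part of SREBP in its levels was not tested. Of 12 genes of cholesterol synthesis and uptake, which are also SREBP targets, 3 rose and 0 fell with the inhibitor, among them Hmgcs1 and Lss. Both lost the call without HFD replicate 1 (adjusted p = 0.090 and 0.096), and also without HFD replicate 3, HFD replicate 4 or HFD + Inhib replicate 3. Hmgcs1 also lost it without HFD + Inhib replicate 2, and Lss without HFD + Inhib replicate 4. On the diet 1 of these 12 rose (Insig1, 0.52 ± 0.17, adjusted p = 0.045) and 0 fell, a share near the 9.58% of all tested genes called higher, and Insig1 lost the call in 6 of the 8 fits that left out an LFD or HFD library (adjusted p of 0.054 to 0.125 in these).

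In the pathway that carries propionyl-CoA into the citric acid cycle, which uses the product of propionate activation, 4 of 6 genes rose with the inhibitor by 0.31 to 0.49 on the log2 scale. Of these, Mcee (0.37) lost the call with the correction for GC content and length (0.19, adjusted p = 0.149), and Mmut (0.31) without HFD replicate 2 or HFD + Inhib replicate 1 (adjusted p = 0.050 and 0.054). On the diet 2 rose, Pcca (0.33 ± 0.08) and Mmut (0.30 ± 0.08), the latter not without LFD replicate 3, HFD replicate 3 or HFD replicate 4 (adjusted p of 0.054 to 0.064). The amino acid N-acyltransferases use acyl-CoA to make glycine and taurine conjugates, and 2 of 6 rose and 1 fell with the inhibitor. Of these, Gm4952 went from 58.3 ± 7.23 to 201 ± 6.27 CPM. Keg1, a glycine N-acyltransferase-like gene, fell on the diet (−1.26 ± 0.21, adjusted p = 0.0011) and rose with the inhibitor (1.27 ± 0.21, adjusted p = 5.0e-04). In glycerolipid synthesis, 5 of 15 genes rose and 1 fell with the inhibitor, with Mogat1 at 3.37 ± 0.29 and Gpat3 at 2.14 ± 0.28. The median log2 fold change of the 15 was 0.142. Beside the counts in this paragraph, 18.2% of all tested genes were called with the inhibitor and 18.4% on the diet. The diet, siRNA and inhibitor comparisons share the HFD libraries.

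**Figure D5:**
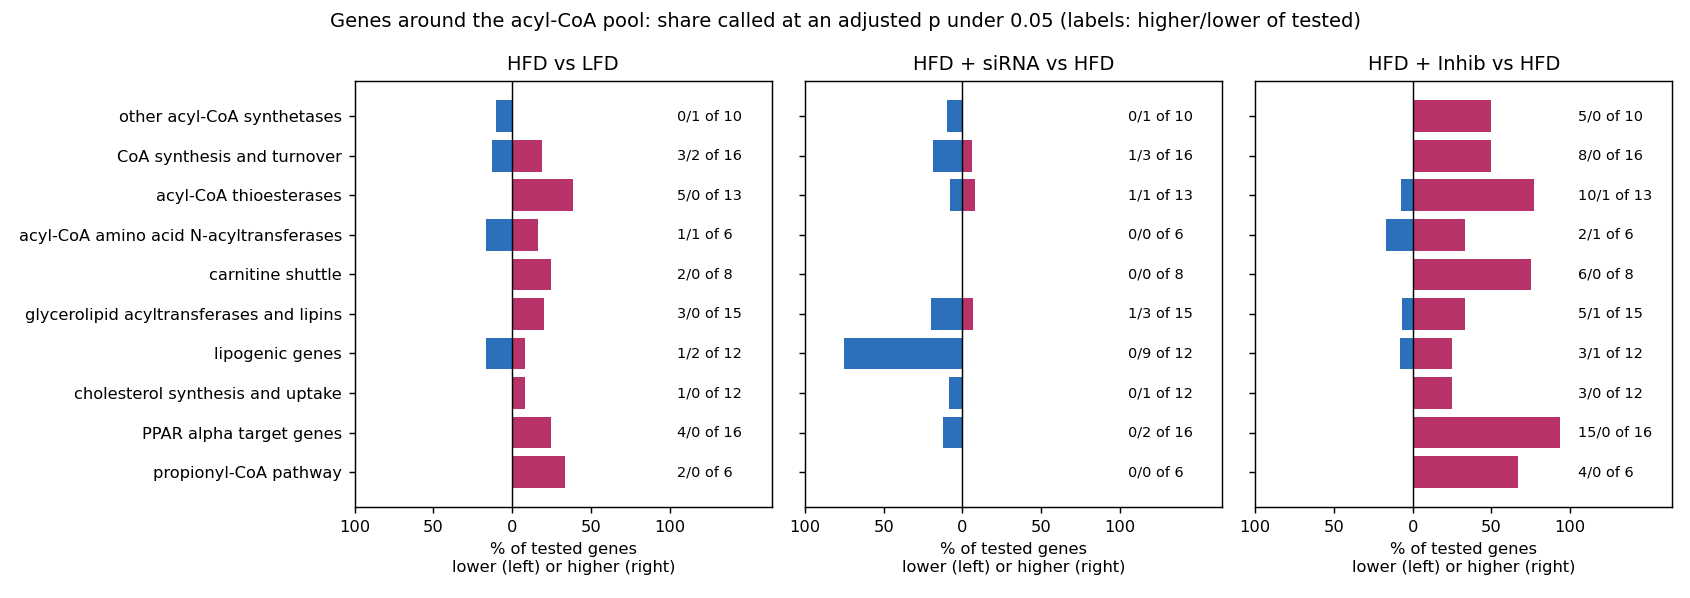
Percentage of the tested genes of 10 lists around acyl-CoA use that were lower (left of 0) or higher (right of 0) at an adjusted p under 0.05, in 3 comparisons. The numbers beside the bars are higher/lower of tested genes. The PPARα target list has 15 of 16 higher with the inhibitor, and the lipogenic list has 9 of 12 lower with the siRNA.

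Patterns over the 16 libraries were compared by the Pearson correlation of log2 CPM with each of 8690 genes whose mean log2 CPM reached 3, as a description, since the groups differ and the libraries of a group share their treatment. The genes most like Acsl1 were Hsd17b4 (r = 0.981), Etfdh (0.979) and Pex11a (0.978). For Acsl3 they were led by Baiap2l1 (0.929), for Acsl4 by Impact (0.955) and for Acsl5 by Pgrmc2 (0.967). For Acsm1 the leading gene was Ftsj1 (0.948), for Acsm3 Bbox1 (0.917) and for Acsm2 Fxr2 (0.878), the last at counts of at most 37. Acss2 was most like Pmvk (0.925), Rdh11 (0.906) and Rxylt1 (0.900). Acss3 was most like Agmo (0.987), Slc16a7 (0.974) and Ttpa (0.971).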

How the data were processed

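Expected counts, unscaled, were deposited in 1 table by gene symbol, and 15.1% of its values are not whole numbers. The submitters' processing notes name STAR, RSEM and mm39, whereas the methods name HTG EdgeSeq, and the strand setting is not given in the sources used here. Groups and replicate numbers came from the labels. Expected counts were rounded, genes kept by filterByExpr (minimum count 10), libraries scaled by TMM (factors 0.929 to 1.09), and all 16 libraries fitted together with edgeR 4.0.16 (R 4.3.3) using glmQLFTest, with an adjusted p threshold of 0.05. No 2 libraries of a group were alike within sampling noise (chi-square per gene at least 19.4). CPM values give counting precision set by the totals. Members and gene lists were chosen with earlier results of these data known. By rule, the genes named beside the members are Khk, up to 4 called genes per list and comparison with the largest fold change and a mean log2 CPM of 1 or more, and the 3 genes most correlated with each member called in any comparison. Marker genes, antisense neighbours of members and the untested relatives are named outside this rule, with their values seen. GC content and length came from GENCODE M21 (GRCm38), with values for 86.5% of tested genes. The correction fits, in each library, trends on both together with 5 degrees of freedom each. Alternatives were DESeq2 1.42.0, RLE size factors, other filters and thresholds, fits of 2 groups, a replicate block, the correction for GC content and length, and each library left out. The edgeR scripts were tested on simulated data. Values of some single genes in the lists are not reported here.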

Additional observations from a re-analysis of the deposited data

Results flagged for a closer look

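Of 40 levels (10 genes in 4 groups), 3 held a library far from the other 3 of its group by Dixon's ratio at its 95% critical value, and chance alone flags about 1 in 20. Acsl4 in HFD + siRNA replicate 2 was at 87.1 CPM, while the other siRNA libraries were at 55.7 to 60.7 CPM (ratio 0.841), and without that library the log2 fold change of Acsl4 against HFD was −0.77 (adjusted p = 7.9e-04). Acsm1 in HFD replicate 3 was at 152 CPM, with the others at 181 to 186 CPM (ratio 0.866), and without it the diet fold change of Acsm1 was −0.40 (adjusted p = 0.032). Acsm2 in HFD replicate 2 was at 0.334 CPM, with the others at 0.117 to 0.152 CPM (ratio 0.841), and without it the diet fold change of Acsm2 was −2.74 (adjusted p = 7.1e-04).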

How the results depend on the processing

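Of 592 log2 fold changes of the 10 genes under alternatives other than a left-out library, 551 kept their direction and their side of the threshold, 21 lost the call, 12 gained one and 8 changed sign. With 1 library left out, 431 of 480 kept both, 24 lost the call, 8 gained one and 17 changed sign. The rise of each Acsl gene with the inhibitor against HFD was called in every fit that left out a library. At an adjusted p under 0.01 the genes called were 1287 for HFD vs LFD (3370 at 0.05), 689 for HFD + siRNA vs HFD (2154), 1733 for HFD + Inhib vs HFD (3339), 3711 for HFD + Inhib vs HFD + siRNA (6204), 566 for HFD + siRNA vs LFD (1582) and 4123 for HFD + Inhib vs LFD (6767). The members called at that threshold were 1 for HFD + siRNA vs HFD and 0 for HFD + siRNA vs LFD. With a log2 fold change of 0.5 or more in either direction, 2101, 1261, 2198 and 1029 genes were called for HFD vs LFD, HFD + siRNA vs HFD, HFD + Inhib vs HFD and HFD + siRNA vs LFD. The fit of only the compared groups called 808 genes for HFD + siRNA vs LFD. For HFD + siRNA vs HFD, DESeq2 called 4 members and 2726 genes, and the correction for GC content and length together called 1430 genes and 0 members. Some signs changed. For HFD vs LFD, Acsm5 was at 0.005 without a filter and at 0.011 with at least 10 counts in every library, where Khk was at 0.005. With the correction for GC content and length Khk was at 0.22 and Acsl4 at −0.202 (0.22 without it) for HFD vs LFD, Acsl3 at 0.03 for HFD + siRNA vs HFD and Acsm2 at −0.05 for HFD + Inhib vs HFD. The cause was not tested. Most shares of a gene in its family moved with coding length in place of transcript length, as did part of the order of levels in LFD.

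The replicate numbers are shared between groups, but in no pair of groups was every correlation of same-numbered libraries above 0.1 (range −0.132 to 0.336), so they are not taken as pairs. For HFD and HFD + Inhib all 4 were positive, from 0.061 to 0.336, with a mean of 0.148 against −0.049 for other pairings. With the replicate block 3 members and 2080 genes were called for HFD + siRNA vs HFD, Acsm1 being added (0.32, adjusted p = 0.0438), and Khk was at 0.004 for HFD vs LFD. The replicate block with the correction for GC content and length called 0 members and 1504 genes for HFD + siRNA vs HFD, and gave 0.232 for Khk and −0.2 for Acsl4 (HFD vs LFD), 0.064 for Acsl3 (HFD + siRNA vs HFD) and −0.031 for Acsm2 (HFD + Inhib vs HFD), where Acsm3 lost its call (0.345, adjusted p = 0.0599).

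With each library left out in turn, genes called ranged from 2001 to 3691 for HFD vs LFD, 1100 to 1981 for HFD + siRNA vs HFD and 965 to 1456 for HFD + siRNA vs LFD, and members called from 1 to 3 and from 0 to 4 in the last 2. The ranges that crossed 0 were, for HFD vs LFD, Acsm5 (−0.052 to 0.032) and Khk (−0.122 to 0.153), for HFD + siRNA vs HFD, Acsl3 (−0.304 to 0.01), Acsm3 (−0.105 to 0.083), Acsm5 (−0.066 to 0.011) and Acss2 (−0.327 to 0.087), for HFD + Inhib vs HFD, Acsm2 (−0.206 to 0.526), for HFD + siRNA vs LFD, Acsm5 (−0.066 to 0.009), and for HFD + Inhib vs LFD, Acss2 (−0.036 to 0.317). Acsm2, at 3 to 37 counts, is limited by depth.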
